A study of Homo sapiens with 24 samples.

Results

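The replication-dependent histone genes were read as the 83 probe sets, of 33297 on the array, whose annotated symbol begins with H1-, H2AC, H2BC, H3C or H4C followed by a number, the names that replaced HIST1H to HIST4H. No symbol of the older form was present (0 probe sets). Of the 83, 63 carried 1 symbol and 20 carried several, and those with several are counted below without being assigned to a gene. By histone type, 11 were H1, 16 H2A, 23 H2B, 13 H3 and 17 H4, and 3 mixed types. The gene table placed 55 on chromosome 6, 21 on chromosome 1 and 7 elsewhere. The H1- prefix also took in 5 entries that lie outside the histone clusters, among them H1-7, H1-8 and H1-10, which are not replication-dependent cluster genes, and the antisense RNA H1-10-AS1. In 4 cases a pair of probe sets held identical values, including the single-symbol sets of H4C14 and H4C15, which left 79 distinct profiles.

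Expression was measured on whole-transcript Affymetrix arrays as log2 signals, and every level and difference below is on that scale. RNA came from 2 Epstein-Barr virus-transformed B-lymphoblastoid cell lines of the HapMap collection, GM10861 and GM10855. Each was sampled after 36 h with calcitriol and estrogen together, with calcitriol, which is active vitamin D, with estrogen, or untreated at 0 h, which gave 8 groups of 3 arrays and 24 samples. The sources used here name neither the doses nor which estrogen and vehicle were used. They also leave unsaid whether a group's 3 arrays are separate cultures, so the p-values rest on a spread that may be technical. Each line stands for 1 donor's cells. With no untreated cells at 36 h, agent and culture time cannot be told apart in a comparison with untreated cells. Treated groups share the 36 h and can be compared at 1 time. The lines gave B cell markers a median signal of 7.81 on the log2 scale (7 markers measured), against 4.58 for T cell, 4.51 for NK cell, 4.92 for monocyte and 5.41 for fibroblast markers. Array medians lay between 5.38 and 5.5, arrays of a group correlated at 0.99 to 0.995 across probe sets, and no array repeated another (0 identical pairs).

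Replication-dependent histone genes supply the core histones H2A, H2B, H3 and H4 and the linker histone H1 while DNA is copied. Their genes lie in clusters, lack introns and are transcribed mainly in S phase under the coactivator NPAT. The mRNAs normally end in a stem-loop bound by SLBP instead of a poly(A) tail, and they are degraded when DNA synthesis stops. The whole-transcript labelling used here does not depend on a poly(A) tail. Most members of a core histone type are highly alike in coding sequence, and H1 members less so. A probe set can therefore take up RNA of its paralogs. The assignment of any value below to a single gene is uncertain to that degree.

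The cluster promoters share short motifs. RefSeq promoter windows of the GRCh38.p14 table were found for 52 of 57 single-symbol coding members of the clusters, giving 54 windows, and were set beside all 35116 windows of the table. In the 250 bases before the start, on either strand, the TATA box TATAAA stood in 36 of 54 windows (66.7%), against 10.7% of all windows. The CCAAT box stood in 46 windows (85.2%), against 32% of all, and the octamer ATTTGCAT in 24 (44.4%), against 1.63%. The octamer lay in 10 of 13 H2A and 14 of 18 H2B windows and in 0 of 6 H1, 0 of 6 H3 and 0 of 11 H4 windows, and CCAAT in 3 of 11 H4 windows. These motifs are the recognition sequences of the TATA-binding protein, of the factor NF-Y and of the octamer factors. None of the 3 motifs contains another, though matches on opposite strands can overlap. A match describes the letters alone, whatever their strand or distance from the start.

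The promoters of 4 members are shown because the results turn on these genes. H2BC12 (chr6:27146859-27147108, minus strand) and H4C8 (chr6:26285535-26285784, minus strand) had the largest falls among single-symbol members in GM10861 against GM10855. H1-1 (chr6:26017788-26018037, minus strand) had the largest rise, and H2BC14 (chr6:27814772-27815021, plus strand), the H2B member with the highest signal, is set beside H2BC12. Each is given 5′ to 3′ as the 250 bases before the start, with any of the TATA box, CCAAT box and octamer, on either strand, in capitals.
H2BC12: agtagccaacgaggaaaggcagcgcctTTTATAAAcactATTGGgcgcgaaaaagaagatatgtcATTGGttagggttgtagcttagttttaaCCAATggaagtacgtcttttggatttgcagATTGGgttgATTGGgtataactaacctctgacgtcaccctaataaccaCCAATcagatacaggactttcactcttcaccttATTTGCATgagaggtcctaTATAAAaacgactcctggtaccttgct
H2BC14: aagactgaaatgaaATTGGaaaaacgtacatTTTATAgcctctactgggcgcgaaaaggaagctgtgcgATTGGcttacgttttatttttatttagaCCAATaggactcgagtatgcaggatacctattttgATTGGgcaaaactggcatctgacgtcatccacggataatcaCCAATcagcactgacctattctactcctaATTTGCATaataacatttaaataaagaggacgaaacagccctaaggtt
H4C8: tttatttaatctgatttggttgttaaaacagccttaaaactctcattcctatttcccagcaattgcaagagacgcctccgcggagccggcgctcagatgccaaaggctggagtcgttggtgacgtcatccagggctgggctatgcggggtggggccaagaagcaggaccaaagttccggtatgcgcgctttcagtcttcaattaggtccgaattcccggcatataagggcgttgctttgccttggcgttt
H1-1: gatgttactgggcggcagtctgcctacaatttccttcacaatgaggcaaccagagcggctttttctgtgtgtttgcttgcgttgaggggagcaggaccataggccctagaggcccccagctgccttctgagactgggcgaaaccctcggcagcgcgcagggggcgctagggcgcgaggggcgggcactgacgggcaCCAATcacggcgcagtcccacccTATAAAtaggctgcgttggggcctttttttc
H2BC12 and H2BC14 both held all 3 motifs, H1-1 held the TATA and CCAAT boxes, and H4C8 held none of these letters in this window. In H2BC14 the only TATA match was on the opposite strand, near the end of the window farthest from the start.

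The members ranked high in brightness among probe sets. Their median rank was percentile 77.3 of the 21214 probe sets with a symbol, and 75 of 83 had a mean log2 signal of at least 5. Brightness also depends on the probes, so signals of different probe sets are listed without being compared as amounts of RNA. H1 probe sets had means from 4.42 to 11.1 with a median of 6.15, and the H1 members with the highest signals were the linker histones H1-4 (11.1) and H1-5 (10.7). H2A means ran from 4.34 to 10.1 with a median of 7.28, led among single-symbol sets by H2AC20 (10.1) and H2AC21 (9.78). H2B means ran from 3.65 to 11.4 with a median of 6.75, led among single-symbol sets by H2BC14 (11.4) and H2BC9 (9.59). Among H3 probe sets the range was 5.06 to 11.3 and the median 7.81, with H3C11 (11.3) and H3C2 (9.82) on top, and among H4 it was 3.80 to 9.94 and 8.17, with H4C3 (9.94) and H4C8 (8.74) on top.

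The lowest signals included the germline forms. H2BC1 (3.65), H2AC1 (4.34) and H1-6 (4.42), known from testis, lay near percentiles 10.4, 19.6 and 21, and H4C7 (3.80) near percentile 12.2. Among single-symbol sets, pseudogenes aside, the other low members of their types were H1-10-AS1 (5.75), H2AC14 (4.80), H2BC26 (4.73), H3C1 (6.91) and H3C3 (6.64). To these came H4C16 (5.68), the H4 gene on chromosome 12. No background limit came with the values, so whether the lowest of these exceed noise was not tested.

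The clearest difference among the histone genes lay between the cell lines. Averaged over the 4 states, 59 of 83 probe sets were higher and 11 lower in GM10861 than in GM10855 at an adjusted p under 0.05 (limma, two-sided). Of all 21214 probe sets tested, 23.4% were called higher and 18.4% lower in this comparison. The median difference of the members was 0.379 on the log2 scale, against -0.0178 over all probe sets. Without the 5 entries outside the clusters, 59 of 78 were higher and 8 lower, with a median of 0.403. A line is 1 donor's cells, and the lines differed in every respect at once, so these differences belong to the pair of lines.

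Core histone types ran the same way and H1 was split. In GM10861 against GM10855, 14 of 16 H2A probe sets were called higher and 1 lower (median difference 0.383), 13 of 23 H2B higher and 1 lower (0.179), 12 of 13 H3 higher and 1 lower (0.473), 12 of 17 H4 higher and 4 lower (0.441) and 3 of 3 mixed sets higher (0.487). Among H1, 5 of 11 were higher and 4 lower (0.111). Named after their values were seen, the 5 higher were the cluster genes H1-1, H1-2, H1-3, H1-4 and H1-5. The 4 lower were H1-6, which is also a cluster gene, and H1-7, H1-8 and H1-10, which lie outside the clusters. By position, 44 of 55 probe sets on chromosome 6 were higher and 5 lower (median 0.441), and 14 of 21 on chromosome 1 were higher and 2 lower (0.301). Of the 7 elsewhere, 1 was higher and 4 were lower (-0.166).

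**Figure D1:**
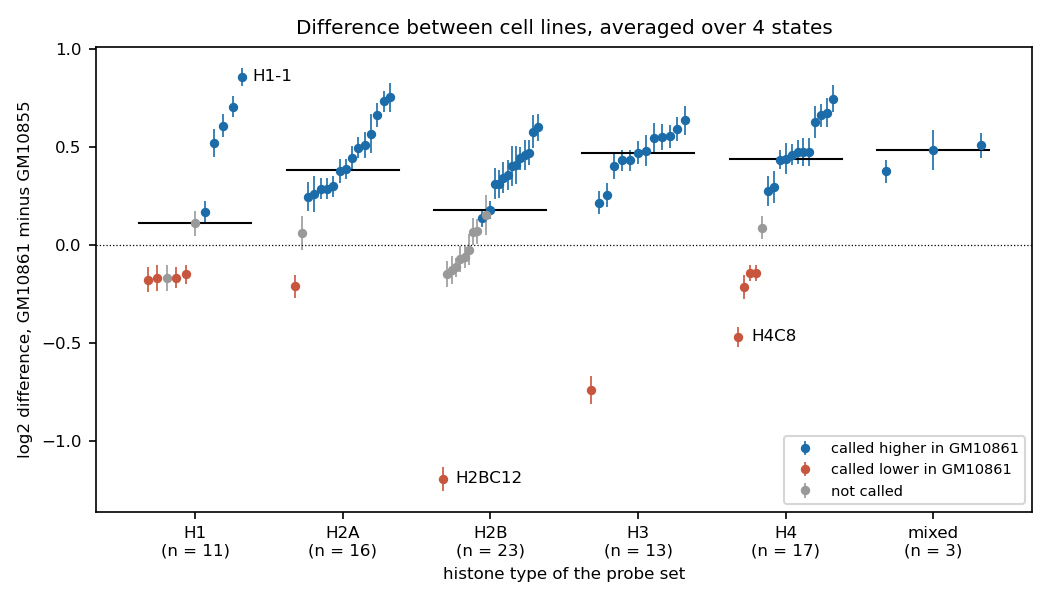
Log2 difference of each histone probe set between GM10861 and GM10855, averaged over the 4 states, grouped by histone type (points with standard errors from limma, bars at the type median, blue called higher, red called lower, grey not called). In all, 59 points are blue and 11 are red, and H2BC12 lies farthest below 0 at -1.19.

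H1-1, a linker histone, had the largest rise. Its lowest, median and highest log2 signals were 6.38, 6.68 and 6.84 on the 12 arrays of GM10861, against 5.60, 5.78 and 5.97 on the 12 of GM10855. The lines did not overlap, and the difference was 0.86 ± 0.045 (SE), 1.81-fold, with an adjusted p of 9.68e-14 in limma. H2AC15, an H2A gene, averaged 8.11 ± 0.206 in GM10861 and 7.36 ± 0.25 in GM10855 (SD, n = 12 each), 0.75 ± 0.0728 higher (1.69-fold, adjusted p = 6.69e-09), again without overlap (7.82 at the lowest against 7.73 at the highest). H4C13, an H4 gene, averaged 8.92 ± 0.146 against 8.17 ± 0.259 (0.75 ± 0.0686 higher). The H2A gene H2AC4 averaged 8.99 ± 0.125 in GM10861 and 8.26 ± 0.224 in GM10855 (0.73 ± 0.055 higher). H1-5, a second linker histone, averaged 11.01 ± 0.084 against 10.3 ± 0.177 (0.71 ± 0.0524 higher). H4C4 averaged 8.03 ± 0.178 in GM10861 and 7.36 ± 0.291 in GM10855 (0.68 ± 0.0738 higher), and there the lines overlapped, with a lowest value of 7.78 against a highest of 7.95.

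H2BC12 went the other way by the widest margin of any member. Its lowest, median and highest log2 signals were 8.34, 8.69 and 8.91 in GM10861, against 9.62, 9.89 and 10.1 in GM10855. All 12 arrays of GM10861 lay below all 12 of GM10855, and the difference was -1.19 ± 0.0606, 2.29-fold lower, with an adjusted p of 5.45e-14. It was -1.17 with both agents, -1.22 with calcitriol, -1.2 with estrogen and -1.18 in untreated cells. H4C8, an H4 gene, gave 8.16, 8.50 and 8.80 in GM10861, against 8.81, 8.98 and 9.13 in GM10855. Those ranges did not overlap either, and H4C8 was 1.38-fold lower (-0.47 ± 0.0492, adjusted p = 2.68e-08).

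The other named falls were small and their ranges overlapped. H4C16 averaged 5.58 ± 0.207 in GM10861 and 5.79 ± 0.191 in GM10855 (difference -0.21 ± 0.0623, adjusted p = 0.00779). H2AC6 averaged 8.34 ± 0.132 against 8.55 ± 0.177 (-0.21 ± 0.0584, adjusted p = 0.00542). The dim germline form H1-6 (-0.18 ± 0.063, adjusted p = 0.0279) and H1-8, a linker histone known from oocytes (-0.17 ± 0.0658, adjusted p = 0.0418), were the nearest to the threshold. H1-6 lost its call in 5 and H1-8 in 13 of 24 fits that left out 1 array, with adjusted p up to 0.0591 and 0.09.

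**Figure D2:**
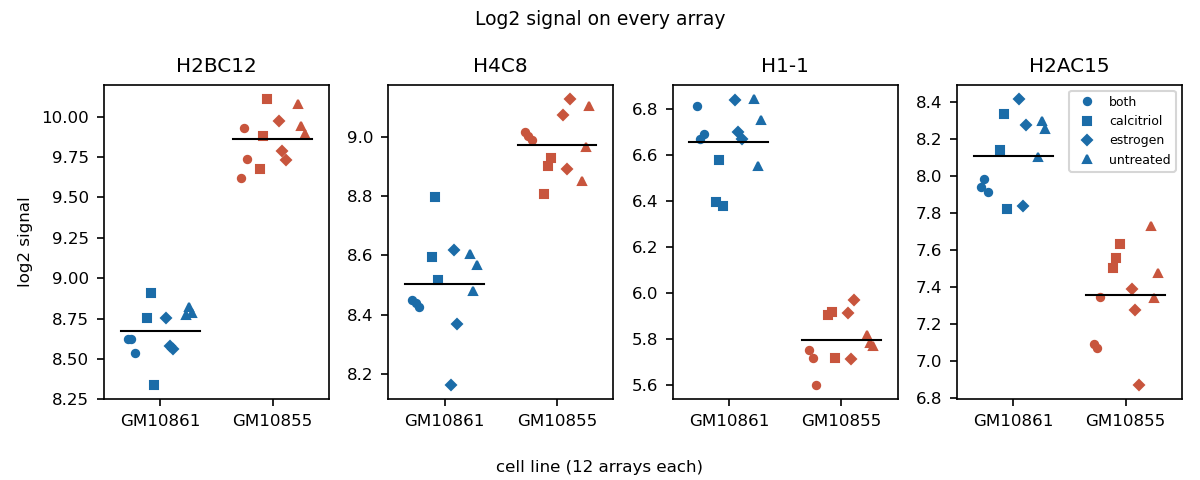
Log2 signal of 4 histone genes on each of the 12 arrays of GM10861 (blue) and of GM10855 (red), with symbols for the states and bars at the line means. H2BC12 and H4C8 are lower and H1-1 and H2AC15 higher in GM10861, and in none of the 4 do the lines overlap.

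Some histone genes are known to give polyadenylated mRNA besides the stem-loop form, H2BC12, H4C8, H2AC6, H2BC21, H2BC11, H2BC4, H2BC5 and H1-2 among them. They are not a full list and were picked after their values were seen, so no test is attached. The part of polyadenylation in the line differences was not tested. Their log2 differences in GM10861 against GM10855 were -1.19, -0.47, -0.21, -0.15, -0.13, 0.16, 0.07 and 0.17 in that order.

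Probe sets that share a gene name did not always move together. A probe set with several symbols that include H2BC12 was 0.31 ± 0.0794 higher in GM10861 (adjusted p = 0.00258), opposite to the single-symbol set of H2BC12. A several-symbol H3 set whose list includes H3C11 was lower (-0.74 ± 0.07, adjusted p = 4.58e-09), while the single-symbol set of H3C11 was 0.40 ± 0.0645 higher. An identical pair of H4 sets listing H4C14 and H4C15 was at -0.145 ± 0.0408, while the single-symbol sets of these genes, themselves identical, were 0.48 ± 0.0715 higher. Which probe set tracks which gene was not tested.

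Complete separation of the lines was less common than the calls. For 11 members all 12 arrays of GM10861 lay above all 12 of GM10855, for 3 they lay below, and for 69 the lines overlapped. Of all probe sets, 7.19% lay wholly above and 3.25% wholly below, so the count below is near the share over the array. Listed after their values were seen, the 11 were H1-1, H1-4, H1-5, H2AC4, H2AC15, H2AC21, H2AC25, H2BC14, H4C3, H4C6 and H4C13. The 3 were H2BC12, H4C8 and the H3 set with several symbols. The direction held in each state when the group means were set side by side: members higher in GM10861 numbered 68 of 83 with both agents, 66 with calcitriol, 68 with estrogen and 65 in untreated cells, with median differences of 0.502, 0.228, 0.421 and 0.249. As shares in these states, 81.9%, 79.5%, 81.9% and 78.3% of members lay above 0, against 49.7%, 46%, 52.2% and 46.4% of all probe sets.

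Genes of S phase, when histone genes are transcribed, and of mitosis differed between the lines as well. Of 24 measured S-phase replication genes, 24 were called higher in GM10861 (against 23.4% of all probe sets), with a median difference of 0.602. The examples with the smallest p were the helicase subunit MCM6 (1.0 ± 0.0393), the replication factor GINS1 (0.95 ± 0.0403) and RRM2 (1.15 ± 0.0518), a subunit of ribonucleotide reductase. Of 15 mitosis genes, 14 were higher and 0 lower (median 0.602), led by the proliferation marker MKI67 (0.85), the kinetochore protein CENPF (0.99) and the topoisomerase TOP2A (0.72). The mean log2 signal of the S-phase list was 8.44 to 8.62 on the arrays of GM10861 and 7.80 to 8.04 on those of GM10855. Their part in the difference of the histone genes was not tested.

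Factors that handle histones were higher in GM10861 in part. Among histone chaperones 15 of 18 were called higher and 0 lower (median 0.341), with RBBP7 (0.58), the H1 and H3-H4 chaperone NASP (0.62) and CHAF1B (0.60), a subunit of chromatin assembly factor, in front. Of 19 measured genes of histone mRNA transcription and processing, 12 were higher and 0 lower (median 0.206). Of all probe sets, 23.4% were called higher and 18.4% lower. CCNE2, a cyclin of the G1/S transition, was 0.96 ± 0.043 higher, CCNA2, an S-phase cyclin, 0.59 ± 0.0364 higher, and ERI1, the exonuclease that trims histone mRNA ends, 0.64 ± 0.0474 higher. SLBP averaged 7.92 ± 0.0986 in GM10861 and 7.66 ± 0.147 in GM10855 (0.26 ± 0.0409 higher, adjusted p = 1.56e-05), and NPAT 7.95 ± 0.108 against 7.75 ± 0.168 (0.21 ± 0.047 higher, adjusted p = 9.41e-04). E2F1, a transcription factor of the G1/S transition, did not pass (0.04 ± 0.0494).

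Replacement histone variants, many of which are made throughout the cell cycle, gave 5 higher and 1 lower of 9 measured (median 0.138). H2AZ2, MACROH2A1 and H2AZ1 were 0.41, 0.42 and 0.43 higher, and the 1 lower was H1-10, which also counts among the 83. Of the cell type markers, 5 of 7 for B cells were higher and 1 lower in GM10861. For other cell types, 1 of 6 T cell and 2 of 4 NK cell markers were lower, and 0 of 5 monocyte and 0 of 4 fibroblast markers were called. Of all probe sets, 23.4% were called higher and 18.4% lower, so the T cell count is near the share over the array. The mean log2 signal of the NK cell markers was 4.25 to 4.53 on the arrays of GM10861 and 4.35 to 4.65 on those of GM10855, and that of the T cell markers 4.91 to 4.98 and 4.86 to 5.07.

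Calcitriol alone did not move the histone genes past the threshold. Averaged over the lines, 0 of 83 were called in either direction in calcitriol against untreated, where 0.618% of all probe sets were called higher and 0.0613% lower. At an unadjusted p under 0.05, 1 was higher and 2 were lower (1.2% and 2.41%, against 3.63% and 2.92% of all probe sets), and the median change was -0.0142. A member's change had a median 95% interval of 0.187 on either side. The smallest p-values belonged to the H2B gene H2BC3 (0.28 ± 0.121, adjusted p = 0.66) and to H2AC25 (-0.16 ± 0.0721) and H2AC14 (-0.31 ± 0.142), both with an adjusted p of 0.726. Further down the list, H1-6 (0.11) and H2AC6 (0.10) came next among the genes above 0, and H1-1 (-0.10) among those below 0.

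With estrogen the members lay low without passing the test. In estrogen against untreated 0 of 83 were called, as were 0% of all probe sets in either direction. Yet 75 of 83 (90.4%) lay below 0, against 43.9% of all probe sets, and 16 were lower at an unadjusted p under 0.05 (19.3%), against 1.89% of all. The median change was -0.129, against 0.0113 over all probe sets. The linker histones H1-3 (-0.32 ± 0.1, adjusted p = 0.789) and H1-2 (-0.20 ± 0.078, adjusted p = 0.899) and the H4 gene H4C2 (-0.21 ± 0.083, adjusted p = 0.899) had the smallest p-values. On the other side, H1-8 (0.10), H1-1 and H1-6 had the smallest p of those above 0. These values average the lines. In GM10861 alone 4 members were lower at an unadjusted p under 0.05 (4.82%, against 1.75% of all probe sets), and in GM10855 18 (21.7%, against 2.93%).

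Averaged over the lines, both agents together gave the lowest median change of the treated states, and 2 members passed. In GM10861 alone the medians were close, at -0.0867 with both agents and -0.0646 with estrogen. In calcitriol and estrogen against untreated, H2AC12 and H1-2 were called lower and 0 higher, while 0.151% of all probe sets were called lower and 0.995% higher. The members' median change was -0.163, with 79 of 83 below 0 (95.2%, against 50.4% of all probe sets) and 32 lower at an unadjusted p under 0.05 (38.6%, against 4.34% of all). H2AC12, an H2A gene, had 5.93, 5.79 and 5.62 on the arrays of GM10861 with both agents, against 5.87, 6.17 and 5.93 in untreated GM10861. In GM10855 it had 5.12, 5.15 and 5.26 with both agents, against 6.04, 5.55 and 5.69 in untreated cells. The groups were apart in GM10855 and overlapped in GM10861, and the average change was -0.40 ± 0.0854 (1.32-fold lower, adjusted p = 0.0168).

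H1-2, a linker histone, had 8.04, 7.98 and 7.79 with both agents in GM10861, against 8.20, 8.32 and 8.21 in untreated cells. In GM10855 it had 7.63, 8.06 and 7.66 with both agents, against 8.29, 7.92 and 8.09 in untreated cells. Here the groups were apart in GM10861 and overlapped in GM10855, and the average change was -0.31 ± 0.078 (1.24-fold lower, adjusted p = 0.0477). H2AC12 was no longer called in 3 of 12 fits that left out 1 array, with an adjusted p of up to 0.0611. H1-2 was no longer called in 10 of 12 such fits (adjusted p up to 0.156). By type, median changes were -0.25 for H2A, -0.195 for H3, -0.186 for H2B, -0.146 for H4 and -0.0622 for H1. The members nearest to rising were H1-6 (0.08), H1-8 (0.07) and H4C16 (0.001), none of which passed.

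**Figure D3:**
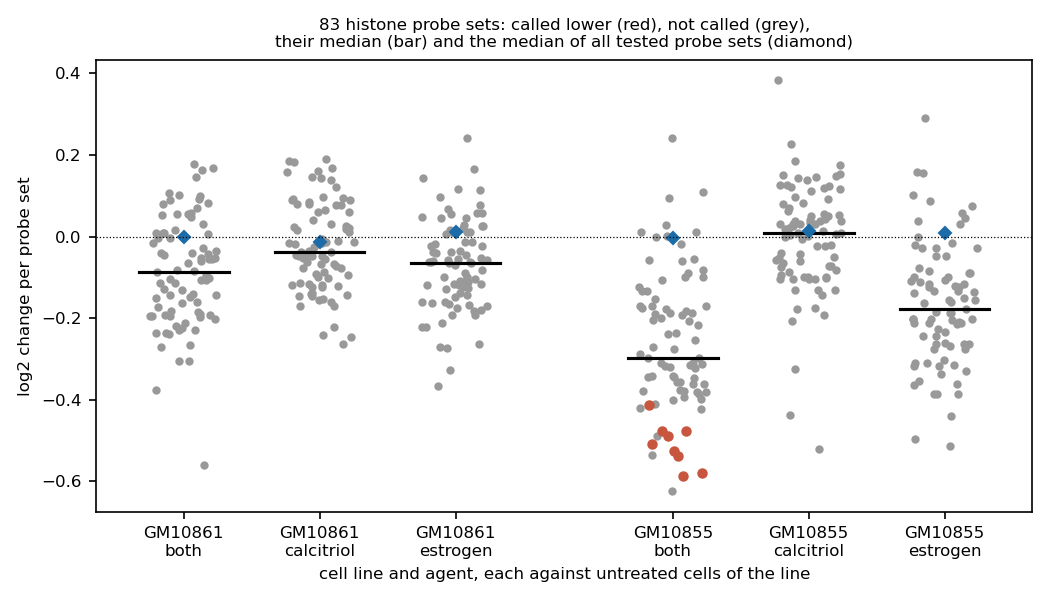
Log2 change of each of the 83 histone probe sets against untreated cells of the same line, for both agents, calcitriol and estrogen in GM10861 and in GM10855 (red called lower, grey not called, bars at the members' median, diamonds at the median of all tested probe sets). The members' median is lowest with both agents in GM10855, at -0.298, where 9 points are red.

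Within the lines, the members called lower with both agents were those of GM10855, although the difference between the lines in response, given below, was not. In GM10855 with both agents against untreated, 9 of 83 were lower, against 0.363% of all probe sets, and the median change was -0.298. The same comparison in GM10861 called 0 of 83 lower, against 0.0141% of all, with a median of -0.0867 and 5 lower at an unadjusted p under 0.05 (6.02%, against 3.43% of all). Of the 9, 5 were H2A, 2 H3 and 2 H4, and 1 of them was an H3 set with several symbols. On the count of arrays, 31 members in GM10855 had all 3 arrays with both agents below all 3 untreated arrays and 0 above, and in GM10861 20 were below and 3 above. Of all probe sets, 5.97% were wholly below and 9.29% wholly above in GM10855, and 7.98% and 7.23% in GM10861.

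H2AC12 had the smallest p in GM10855, with the values given above and a change of -0.59 ± 0.121 (1.5-fold lower, adjusted p = 0.0106). H2AC21 had 9.01, 9.40 and 9.03 with both agents, against 9.88, 9.60 and 9.58 in untreated cells (-0.54 ± 0.122, adjusted p = 0.021). H2AC4 had 7.93, 8.07 and 7.95 with both agents, against 8.71, 8.22 and 8.45 (-0.48 ± 0.11, adjusted p = 0.0232). All 3 are H2A genes, and in each the groups were apart. H3C2 had 9.02, 9.34 and 9.26 with both agents, against 9.97, 9.53 and 9.69 in untreated cells (-0.53 ± 0.124, adjusted p = 0.0264). The H4 gene H4C2 had 7.59, 7.77 and 7.42 with both agents, against 8.29, 8.02 and 7.91 (-0.48 ± 0.117, adjusted p = 0.0317). H4C4 had 6.78, 7.32 and 7.03 with both agents, against 7.94, 7.46 and 7.46 (-0.58 ± 0.148, adjusted p = 0.0383). Each of these was likewise apart between the groups. H2AC13 changed by -0.51 ± 0.131 (adjusted p = 0.0406) and H2AC8 by -0.41 ± 0.109 (adjusted p = 0.0459).

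These calls rest on array 1 of both groups. Of the 8 named genes, array 1 with both agents was the lowest of its group for 7, and untreated array 1 was the highest of its group for 8. Without either of these arrays 0 members were called lower in GM10855, without array 3 with both agents 1 was, and without array 2 with both agents 15 were.

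**Figure D4:**
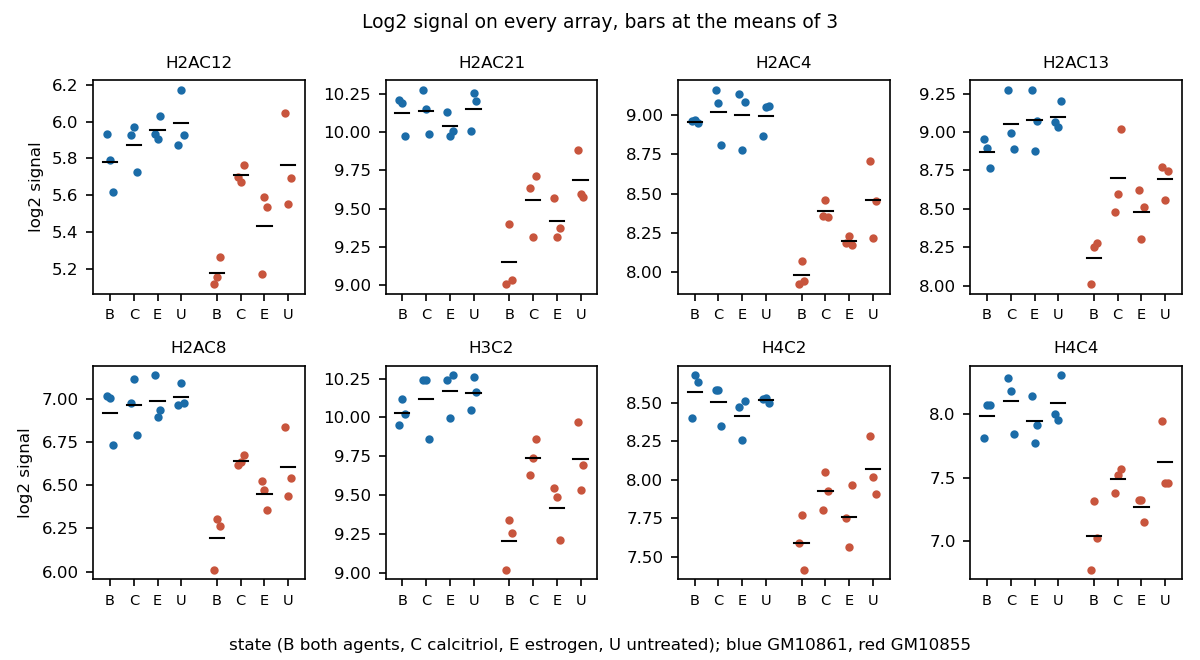
Log2 signal on every array of the 8 named histone genes called lower in GM10855 with both agents, by state, in GM10861 (blue) and GM10855 (red), with bars at the means of 3 arrays. In GM10855 the arrays with both agents lie below the untreated arrays in each panel.

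H2BC4, picked for its size, had a lower mean change than any called member in GM10855 with both agents, -0.62 ± 0.203, and did not pass (adjusted p = 0.116). Above 0, the smallest p-values belonged to H1-6 (0.24), H4C7 (0.11) and H4C8 (0.03), all uncalled. In estrogen against untreated in GM10855, 0 of 83 were called lower, as were 0% of all probe sets, with a median change of -0.177 and 18 lower at an unadjusted p under 0.05 (21.7%, against 2.93% of all). H1-10-AS1 had the smallest p there (-0.51 ± 0.13, adjusted p = 0.543). Of the genes of histone mRNA transcription and processing, 2 of 19 rose and 1 fell in GM10855 with both agents, where 1.97% of all probe sets were called higher. NPAT was 0.38 ± 0.094 higher (adjusted p = 0.0337), CASP8AP2, a factor of histone mRNA processing, 0.38 ± 0.0931 higher (adjusted p = 0.0313), and E2F1 changed by -0.39 ± 0.0988 (adjusted p = 0.0353). SLBP did not pass (-0.02 ± 0.0818). Of 24 S-phase and 15 mitosis genes 0 were called, with medians of -0.0595 and -0.045, and 4 of 7 B cell markers were higher (median 0.452). The part of these genes in the histone values was not tested.

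The comparisons matched for time bear on each agent in the presence of the other. Calcitriol added to estrogen called 0 of 83, against 0.679% of all probe sets higher and 0.0754% lower, with a median change of -0.059 and 4 lower and 1 higher at an unadjusted p under 0.05. The 4 are 4.82% of members, near the 3.97% of all probe sets. H2AC13 (-0.25 ± 0.0925, adjusted p = 0.412), H2AC12 (-0.22) and H2AC8 (-0.16) had the smallest p below 0, and H4C16 (0.20), H2BC1 and H2AC20 above it. Estrogen added to calcitriol also called 0 of 83, and 0% of all probe sets in either direction. There the median was -0.171, and 75 of 83 lay below 0 (90.4%, against 49.1% of all probe sets). At an unadjusted p under 0.05, 34 were lower (41%, against 3.63% of all). The leading members below 0 were H2BC3 (-0.48 ± 0.121), H2AC13 (-0.35 ± 0.0925) and H2AC12 (-0.31 ± 0.0854), each with an adjusted p of 0.409. By line, 48 members were lower at an unadjusted p under 0.05 in GM10855 (57.8%, against 6.84% of all probe sets), with a median of -0.29. In GM10861 it was 1 (1.2%, near the 1.15% of all), with a median of -0.0647.

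In GM10855 alone, estrogen added to calcitriol called 1 of 83 lower, against 0.0189% of all probe sets, and in GM10861 0 of 83, against 0% of all. The 1 was H2BC3, an H2B gene. It had 5.10, 5.71 and 5.33 with both agents in GM10855, against 6.43, 6.14 and 6.33 with calcitriol, and the groups did not overlap (-0.92 ± 0.17, 1.89-fold lower, adjusted p = 0.0499). With estrogen it had 5.96, 5.66 and 5.73, and untreated 6.32, 5.72 and 5.71, so that the means of both groups without calcitriol lay between. In GM10861 it had 6.45, 6.75 and 6.32 with both agents, against 6.88, 6.43 and 6.31 with calcitriol. The call was lost without any 1 of 5 of the 6 arrays compared, that is, all but array 2 of GM10855 with both agents (adjusted p up to 0.284).

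Whether calcitriol acted differently with and without estrogen was asked by the interaction of the agents, which called 0 of 83 and 0% of all probe sets in either direction, with a median of -0.0595. At an unadjusted p under 0.05, 1 was higher and 1 lower (1.2% each, against 1.85% and 2.56% of all probe sets). H2BC3 (-0.38 ± 0.17), H2AC13 and H2AC8 had the smallest p below 0, and H2BC1, H4C16 and H2AC11 above it among named members, all with an adjusted p of 0.992 or more. The mean of the 3 treated states, 36 h against 0 h, called 0 of 83, against 0.41% of all probe sets higher and 0.0471% lower. Its median was -0.0993, with 78 of 83 below 0 and 20 lower at an unadjusted p under 0.05 (24.1%, against 2.97% of all), led by H2AC12 (-0.22 ± 0.0697, adjusted p = 0.262), H1-3 (-0.26) and H1-2 (-0.20). Above 0 the smallest p belonged to H1-6, H1-8 and H1-7.

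No histone gene passed the test of a difference between the lines in response. The response of GM10861 minus that of GM10855 called 0 of 83 members in each of 6 comparisons. Over all probe sets the calls were 0.00943% for calcitriol against untreated, 0% for estrogen against untreated, 0.0141% for both agents against untreated, 0.00471% for calcitriol added to estrogen, 0% for estrogen added to calcitriol and 0.00471% for 36 h against 0 h. For both agents the members' median difference in response was 0.176, with a median 95% interval of 0.373 on either side of a member's value, and 16 were above 0 and 2 below at an unadjusted p under 0.05 (19.3% and 2.41%, against 3.85% and 7.02% of all probe sets). For estrogen added to calcitriol the median was 0.241, with 14 above and 4 below (16.9% and 4.82%, against 4.12% and 2.81% of all). H4C2 (0.53 ± 0.166, adjusted p = 0.237) and H2AC21 (0.51 ± 0.173, adjusted p = 0.271) had the smallest p of the named members for both agents. A p that misses the threshold at this width does not show that the lines responded alike.

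The histone genes were also summarised array by array. On each array, the median over the 79 distinct profiles of the log2 deviation from the mean of all 24 arrays was taken. In GM10861 its mean was 0.124 ± 0.0387 with both agents, 0.197 ± 0.161 with calcitriol, 0.151 ± 0.125 with estrogen and 0.23 ± 0.0465 in untreated cells (SD, n = 3 each). In GM10855 it was -0.349 ± 0.141 with both agents, -0.0464 ± 0.0933 with calcitriol, -0.236 ± 0.0711 with estrogen and -0.0468 ± 0.191 in untreated cells. Single arrays stood apart. Array 1 of GM10855 with both agents was at -0.512, against -0.259 and -0.276 for the others of its group, and untreated array 1 was at 0.164, against -0.207 and -0.0976. Array 3 with calcitriol in GM10861 (0.0115) and array 2 with estrogen (0.0107) lay below their fellows. Over all probe sets the same measure stayed between -0.0337 and 0.0321.

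**Figure D5:**
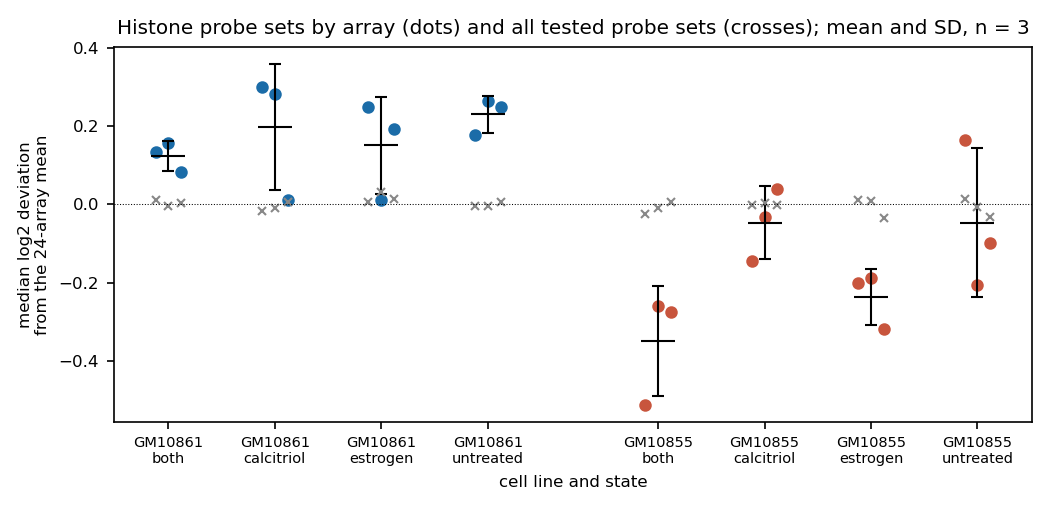
Median log2 deviation of the histone probe sets (79 distinct profiles) from the mean of 24 arrays, for each array (dots, GM10861 blue, GM10855 red) with the group mean and SD (n = 3), and the same for all tested probe sets (grey crosses). All 12 arrays of GM10861 lie above 0, from 0.0107 to 0.3, and the crosses stay near 0. In GM10855, untreated array 1 (0.164) and calcitriol array 3 (0.0387) also lie above 0, so the lines overlap.

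Deviations from the group means were correlated among the members, with a mean pairwise r of 0.32 over 24 arrays, against 0.015 over all probe sets. It was 0.561 within H3, 0.4 within H2B, 0.374 within H2A, 0.274 within H4 and 0.104 within H1. The members share arrays and, where their sequences are near-identical, probes, so they are not separate observations. The standard deviation within groups had a median of 0.168 for members (0.0877 to 0.291), against 0.13 for all probe sets. It was largest for H2BC9, an H2B gene, whose deviations correlated at 0.89 with the members' median deviation. The single-symbol probe sets of the whole table most like H2BC9 over the 24 arrays were TAF10 (r = 0.934), CLPP (0.922), TKT (0.915), CNN2 (0.902) and the H3 gene H3C7 (0.897), of which 1 is a histone gene. The first principal component of all deviations held 12.8% of their variance and correlated at 0.299 with the members' median and at 0.519 with H2BC9. Single probe sets had a median absolute correlation with it of 0.245 among members and 0.284 among all probe sets.

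The members were also split by promoter motif. Among genes with the octamer (23 genes) the median difference in GM10861 against GM10855 was 0.314, against 0.477 without it (29 genes), and the median change in GM10855 with both agents was -0.312, against -0.298. With and without a TATA box (34 and 18 genes) the median line differences were 0.376 and 0.443 and the median changes -0.298 and -0.317, and for the CCAAT box (44 and 8 genes) 0.424 and 0.457, and -0.304 and -0.314. These are descriptions without a test, and the octamer stood in H2A and H2B windows alone.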

How the data were processed

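The authors deposited log2 probe-set signals of 24 arrays, which per the submitters' processing notes came from RMA, run with version 1.0.1 of Affymetrix Expression Console. Labelled cDNA was made from total RNA by the Affymetrix whole-transcript protocol, per the labels' protocols. Those sources name no genome build or annotation, nor the set of arrays that RMA was run on.

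From these values, limma 3.58.1 in R 4.3.3 fitted 1 mean for each of 8 groups of 3 arrays to the 21214 probe sets with a symbol. Tests were two-sided, Benjamini-Hochberg adjusted over all 21214, and called at an adjusted p under 0.05. Comparisons with untreated cells share the untreated arrays, and those between lines average the 4 states. Histone members, gene lists and marker lists were chosen with earlier results of these data known.

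Named genes have 1 symbol. They are up to 10 called members per direction (6 between the lines), or else the 3 with the smallest p in that direction. To these were added the 2 highest and 2 lowest members of each type, the most variable members, SLBP, NPAT and up to 3 genes of each other list. Pseudogenes are not named. Symbols came from the platform annotation, and promoters and chromosomes from RefSeq. The script's steps were tested on simulated data. Depth does not apply to arrays, whose number limits the precision. Alternatives were a filter at a mean log2 signal of 5, all 33297 probe sets, median centring, cyclic loess, trended robust variance, array weights, a fit of the arrays compared alone, 1 probe set per symbol, single-symbol members and leaving out each array.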

Additional observations from a re-analysis of the deposited data

How the results depend on the processing

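No paired analysis was possible because the labels give the arrays no replicate numbers that link groups. Between the lines, leaving out 1 array gave 58 to 60 members higher and 9 to 13 lower in GM10861, and 10 of 12 named genes kept their call in every fit. H1-6 was lost under cyclic loess (adjusted p = 0.162), and H1-8 with all probe sets (0.0688) and array weights (0.0729). For both agents against untreated, 2 members were called lower. The count was 5 with the filter on dim probe sets, 5 with trended robust variance, 4 with array weights, and 1 each with all probe sets, median centring and the arrays compared alone. Leaving out 1 array gave 0 to 5. The count was 0 when the array left out was array 1 of GM10855 with both agents, array 2 of untreated GM10861 or array 3 of GM10861 with both agents. It was 5 without array 2 of GM10855 with both agents and 4 without array 2 of untreated GM10855. H2AC12 (adjusted p = 0.0569) and H1-2 (0.154) both lost their call when the arrays compared were fitted alone.

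The alternatives within GM10855 were chosen after seeing the data. There, 9 members were lower with both agents. The count was 13 with the filter, 13 with trended robust variance, 12 with cyclic loess, 8 with median centring, 3 with all probe sets, 4 with array weights and 0 with the arrays compared alone, and 0 to 15 on leaving out 1 array. None of the 8 named genes (0) kept its call in every fit. For estrogen added to calcitriol, where 1 was lower, the count was 4 with the filter, 5 with trended robust variance, 0 with all probe sets, median centring or the arrays compared alone, and 0 to 6 on leaving out 1 array. The line differences in response gave 0 to 1, the 1 without array 2 of GM10855 with both agents.

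Some uncalled values near 0 changed sign. H4C16 with both agents was -0.009772 with array weights and -0.07079 to 0.04694 on leaving out 1 array. H4C8 in GM10855 with both agents was -0.01795 with cyclic loess, -0.01199 with array weights and -0.03302 to 0.09336. On leaving out 1 array, H1-6 was -0.006858 to 0.08401 for estrogen and -0.001478 to 0.1529 for both agents, and H1-7 was -0.01432 to 0.0343 for 36 h against 0 h. The cause of these changes was not tested. Calcitriol, estrogen, each added to the other, the interaction and 36 h against 0 h, averaged over the lines, called 0 members in every alternative.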
